A study of Mus musculus with 2 samples.

Results

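The transcripts described here encode the proteasome: its core subunits, the regulatory particle, the activators and 1 inhibitor that dock on the core, and the chaperones that assemble it. Members were chosen by gene symbol alone, as every Psma, Psmb, Psmc, Psmd, Psme, Psmf or Psmg symbol followed by a number, which gave 48 of the 12836 genes in the table. RNA of mouse morulae was measured in 1 library per group. Embryos of the dsNat10 group had received an injection of long RNA duplexes matching Nat10, an RNA acetyltransferase, and those of the dsGFP control group duplexes matching GFP, which the mouse genome lacks. Per the labels, the embryos of both groups were of the ICR strain, and the design text names 50 injected morulae, without saying whether that is per library, so each library is a pool of embryos. The question was how transcript levels in the morula, the stage before the blastocyst, differ when Nat10 RNA is depleted. With 1 library per group no difference has a replicate check, no test was possible, and every comparison below is between these libraries.

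The proteasome is the main protease of the cytosol and nucleus for proteins tagged with ubiquitin. Its 20S core is a stack of rings, with outer rings of alpha subunits that gate the channel and inner rings of beta subunits, some of which carry the cutting sites. The 19S regulatory particle sits on the core: its base holds a ring of ATPases that unfold the substrate, and its lid holds the enzyme that removes ubiquitin. Core and particle together are called 26S. Early embryos are known to use this system to clear proteins inherited from the egg.

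The libraries held 28303119 (dsNat10) and 29139232 (dsGFP) estimated reads. The targeted gene, Nat10, had 37 reads in dsNat10 and 886 in dsGFP. All 11 embryo markers examined, among them Pou5f1, Gata3 and Krt8, were detected in both libraries, but not at equal levels. Cdx2 was 4.52-fold lower in dsNat10 (110 and 502 reads), Nanog 3.17-fold lower and Krt8 2.10-fold lower. In contrast, 6 of the 11 were higher in dsNat10, among them Gata3 (1.33-fold). The part of such marker differences in the results below was not tested. Some markers of other cells were found too. Those of cumulus cells (2 of 6 in the table) summed to 23.9 TPM in dsNat10 and 27.0 TPM in dsGFP, and those of blood or fibroblasts (4 of 6) to 75.2 and 82.6 TPM. Amhr2 (23.9 and 26.9 TPM), Cd68 (32.7 and 40.7 TPM) and Pecam1 (31.1 and 16.45 TPM) exceeded the median gene of the table (8.21 and 7.59 TPM). Inhba and Col1a1 were nearly absent. Oocyte markers (3 of 6) summed to 44.9 and 6.52 TPM, with Zp3 and H1f8 higher in dsNat10 and Gdf9 higher in dsGFP. In such pooled RNA, fewer cells of a type and less RNA per cell cannot be told apart.

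Levels of different genes were compared in TPM, which corrects for transcript length. The difference of 1 gene between libraries is given as the ratio of CPM, reads per 1000000, with an exact 95% interval that covers counting error only. A gene passed the filter at a mean of 5 CPM or more. It was called lower or higher by a fold rule of 1.2, 1.5 or 2 when its log2 ratio of CPM plus 1 reached that fold and the interval excluded equality.

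The start regions of 6 chosen members are shown, so that their letters can be set side by side. The first pair encode cutting subunits. The other 4 had the lowest ratios of the alpha ring, the lid and the assembly chaperones (Psmg4 and Psmd10). Each is the 120 bases before a start in RefSeq, GRCm38.p6, on the strand of the gene. For Psmb6 that start lies inside the gene span given below, which begins at chr11:70525324. The end of its stretch therefore lies within that span. They lie at chr14:54617996-54618115 (Psmb5, minus strand), chr11:70525237-70525356 (Psmb6, plus), chr3:108256806-108256925 (Psma5, plus), chr14:14120946-14121065 (Psmd6, minus), chr13:34162844-34162963 (Psmg4, plus) and chrX:140956712-140956831 (Psmd10, minus). Capitals mark any match, on either strand, to 3 motifs: TGACNNNGC, the core of the antioxidant response element that Nfe2l1 and related factors bind, CCAAT, the box bound by NF-Y, and GGGCGG, the GC box bound by Sp factors.
Psmb5: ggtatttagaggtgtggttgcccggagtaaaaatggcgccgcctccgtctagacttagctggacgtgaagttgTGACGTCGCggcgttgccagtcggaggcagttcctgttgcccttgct
Psmb6: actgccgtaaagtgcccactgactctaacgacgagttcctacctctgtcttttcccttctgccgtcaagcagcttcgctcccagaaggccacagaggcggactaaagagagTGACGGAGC
Psma5: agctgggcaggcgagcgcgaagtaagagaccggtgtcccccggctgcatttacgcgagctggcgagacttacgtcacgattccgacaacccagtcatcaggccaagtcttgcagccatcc
Psmd6: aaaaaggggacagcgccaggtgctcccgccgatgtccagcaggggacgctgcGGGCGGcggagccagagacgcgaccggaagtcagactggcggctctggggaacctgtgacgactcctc
Psmg4: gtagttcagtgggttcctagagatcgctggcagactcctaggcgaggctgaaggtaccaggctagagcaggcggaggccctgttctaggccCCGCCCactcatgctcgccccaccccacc
Psmd10: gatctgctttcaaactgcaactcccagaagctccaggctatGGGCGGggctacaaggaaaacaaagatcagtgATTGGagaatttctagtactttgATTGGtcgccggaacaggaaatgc

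The antioxidant core lay within the stretches of Psmb5 and Psmb6, 47 bases before the start used for Psmb5 and 9 bases before that used for Psmb6. In Psmb6 the match lay inside the gene span, after its first base at chr11:70525324. The core was in none of the other 4 stretches. Psmb7, the other cutting subunit, was not shown. Psmd10 carried CCAAT in reverse at 2 positions and 1 GC box, and Psmd6 and Psmg4 carried 1 GC box each. Start regions (250 bases before to 50 after the start) were found for 40 of the 48 members. TGACNNNGC was in those of 6 members (15%) and of 3781 of 27025 genes in the reference table (14%). CCAAT was in 14 of 40 (35%) against 41.1% of the reference genes, and GGGCGG in 23 of 40 (57.5%) against 38.2%. Matches were allowed to overlap. The reference genes were not limited to those measured here, and no comparison with genes of like abundance was made. Among the 37 members with a start region that passed the filter, the median log2 ratio was -0.23 for the 6 with TGACNNNGC and -0.31 for the other 31. For GGGCGG these medians were -0.29 (22 members) and -0.25 (15 members), and for CCAAT -0.20 (13 members) and -0.33 (24 members). The ranges of members with and without each motif overlapped.

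Most proteasome transcripts were somewhat lower in the dsNat10 library. Of the 44 members that passed the filter, 33 had a log2 ratio below 0 (75.0%, background 49.5% of 8738 genes), and the median was -0.29, against 0.01 over all genes. By the 1.2-fold rule 22 were lower (background 36% of genes) and 3 higher (background 37.4%). By the 1.5-fold rule 8 were lower (background 23.8%) and 1 higher (background 25.1%), and by the 2-fold rule 2 were lower (background 15.3%) and 0 higher (background 15.2%). The members thus had a ratio below 0 more often than genes in general did, and had a smaller share past the 1.5-fold and 2-fold rules in either direction.

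Abundant genes vary less in these libraries, so the members were also read against genes of like abundance. At a mean of 100 CPM or more, 26 of 33 members had a ratio below 0, against a background of 54.7% of 2114 genes. Of these 33, 15 were lower by the 1.2-fold rule (background 31%) and 0 higher (background 23.8%), while 4 were lower (background 11%) and 0 higher (background 8.75%) by the 1.5-fold rule. None was lower (background 2.55%) or higher (background 2.32%) by the 2-fold rule. The median of the 33 was -0.25, and that of the 2114 genes -0.04. Among the 11 passing members under 100 CPM, 7 had a ratio below 0 (background 47.8%), 7 were lower (background 37.6%) and 3 higher (background 41.7%) by the 1.2-fold rule, and their ratios were spread more widely, from -1.77 to 0.79.

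**Figure D1:**
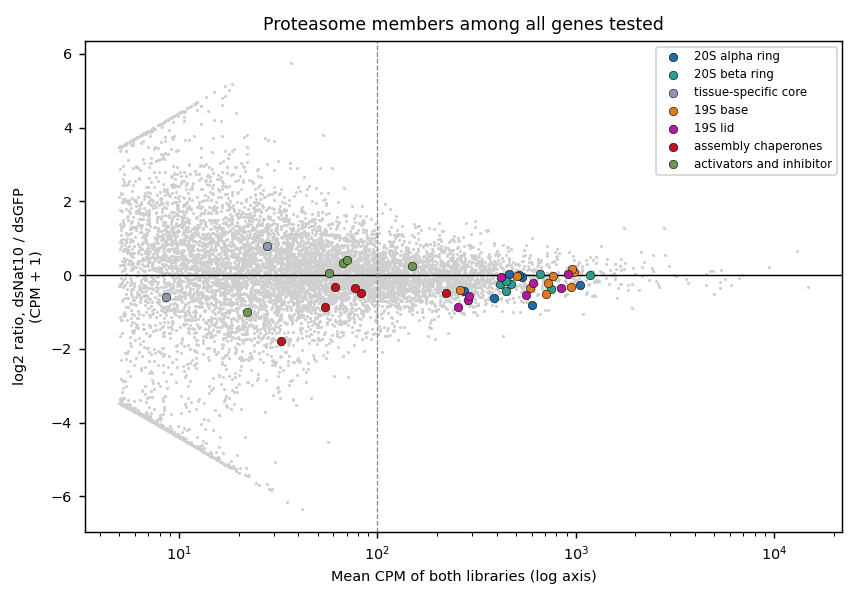
Each point is a gene with a mean of 5 CPM or more, with its mean CPM in both libraries on the x axis (log scale) and its log2 ratio, dsNat10 over dsGFP, of CPM plus 1 on the y axis; grey points are other genes, coloured points the 44 proteasome members by subcomplex, and the dashed line marks 100 CPM. Members right of the line sit in a narrow band mostly below 0 (median -0.25), while those to the left run from -1.77 to 0.79.

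The alpha ring was lower through 4 of its 7 genes, while the other 3 were nearly equal. Psma5 (chr3:108256926-108279952) had 626 TPM in dsNat10 and 1056 TPM in dsGFP, from 12505 and 22168 reads. It was 1.75-fold lower (1.72 to 1.79), the lowest ratio in the 20S core. Psma1 (chr7:114264550-114276116) had 422 and 625 TPM and was 1.54-fold lower (1.499 to 1.58). Psma4 was 1.35-fold lower (1.30 to 1.39), with fractional estimated counts that leave part of its reads uncertain. Psma7, the most abundant alpha subunit, had 1832 and 2112 TPM and was 1.199-fold lower (1.18 to 1.22), just short of the 1.2-fold rule. By contrast Psma6, Psma2 and Psma3 had ratios of 96.5%, 99.4% and 101.7% of dsGFP, and the intervals of Psma2 and Psma3 included equality. The ring's median log2 ratio was -0.26, with 3 of 7 lower by the 1.2-fold rule, against 31% of genes at 100 CPM or more. Since each ring takes 1 copy of each alpha subunit, equal ratios would have kept their order. However, Psma5 went from rank 7 to rank 19 in TPM among the 31 subunits of the 26S particle within the symbol rule.

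The beta ring differed less. The cutting subunits are Psmb5 (chymotrypsin-like), Psmb6 (caspase-like) and Psmb7 (trypsin-like). Psmb6 (chr11:70525324-70527858) had 2053 TPM in dsNat10 and 1970 TPM in dsGFP, from 33763 and 33992 reads, and its interval (0.988 to 1.02 times the dsGFP level) included equality. Psmb5 (chr14:54614120-54617995) had 818 and 937 TPM and was 1.19-fold lower (1.16 to 1.22). Psmb7 had 842 and 971 TPM and was 1.19-fold lower (1.17 to 1.22). Thus 2 of the 3 cutting subunits had almost the same ratio and Psmb6 stood above them. Of the structural subunits, Psmb4 had the lowest ratio, with 734 and 953 TPM (1.35-fold lower, 1.32 to 1.38), and Psmb3, the most abundant of all members in dsGFP, had 1763 and 2211 TPM (1.30-fold lower, 1.28 to 1.33). Psmb2 was highest, with 1490 and 1394 TPM (1.03-fold higher, 1.01 to 1.05), and Psmb1 lay between at 88.7% of dsGFP. The ring's median was -0.25, with 2 of 7 lower by the 1.2-fold rule, no larger a share than the 31% of genes at 100 CPM or more, and none by the 1.5-fold rule (11%).

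**Figure D2:**
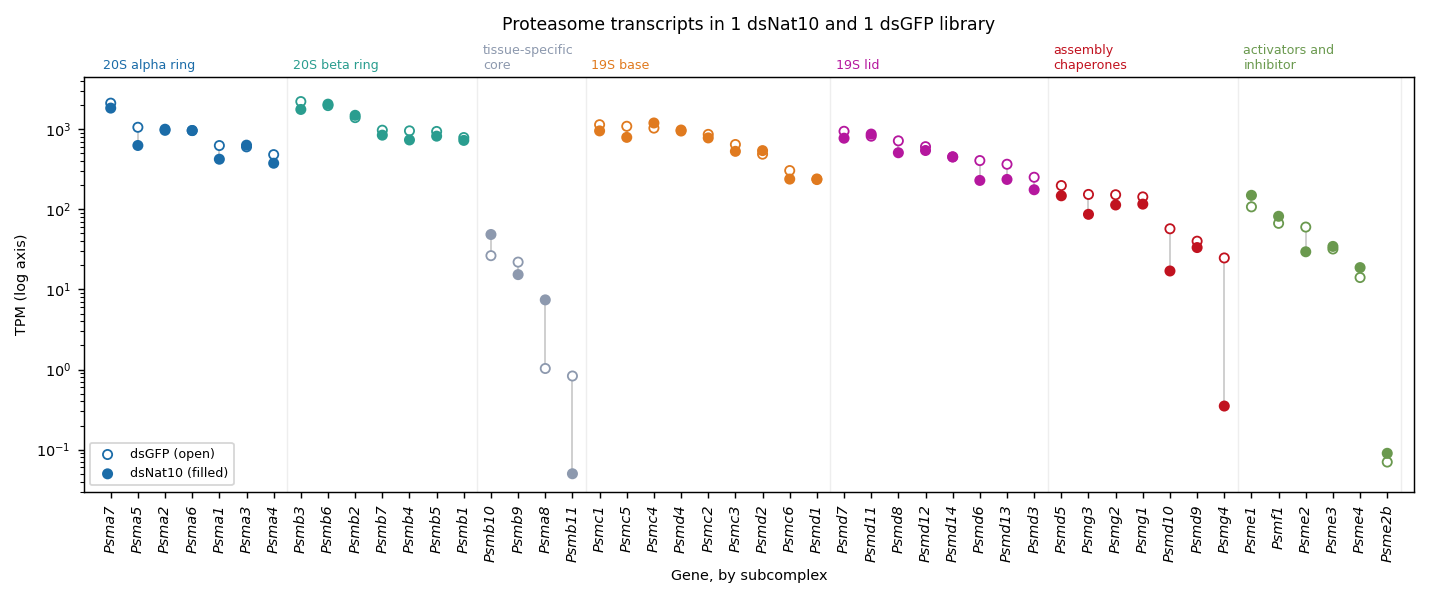
Level of all 48 members in TPM (log y axis), open circles for the dsGFP and filled circles for the dsNat10 library, ordered within each subcomplex by the dsGFP level. The 31 subunits of the 26S particle lie between 175 and 2211 TPM, assembly chaperones and activators below 200 TPM, and the widest gaps are those of Psmg4, Psmb11, Psma8 and Psmd10.

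Immune cells swap the cutting subunits for inducible counterparts, which change the peptides produced. Among them, Psmb9 takes the place of Psmb6 and Psmb10 that of Psmb7. Both were far below the standard subunits in these morulae, though above the median gene of the table (8.21 TPM in dsNat10 and 7.59 TPM in dsGFP). Psmb9 had 15.3 TPM in dsNat10 and 21.9 TPM in dsGFP, from 190 and 307 reads, and was 1.60-fold lower (1.33 to 1.93). Psmb10 had 48.5 and 26.4 TPM, from 1018 and 582 reads, and was 1.77-fold higher (1.59 to 1.96), the only one of the 44 members past the filter to be higher by the 1.5-fold rule. Relative to the standard subunit, Psmb9 stood at 0.745% of the TPM of Psmb6 in dsNat10 and 1.11% in dsGFP, and Psmb10 at 5.75% and 2.72% of that of Psmb7. The 2 genes thus differed in opposite directions. The blood or fibroblast markers did so too, with Cd68 at 673 and 880 reads and Pecam1 at 1879 and 1036 reads, and their part in the result was not tested. At 5 to under 100 CPM, 27.9% of genes were lower and 30.4% higher by the 1.5-fold rule, so such ratios were common at this abundance.

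A pair of core subunits known from single organs fell below the filter. Psma8, the alpha subunit of the testis that replaces Psma7 in male germ cells, was covered by 216 reads against 30 in the control, and was 7.27-fold higher (4.95 to 11.04), or 0.404% and 0.0488% of the TPM of Psma7. Psmb11, the thymus counterpart of Psmb5, had 4 and 69 reads, 17.1-fold lower (6.38 to 64.4), and its counts are fractional. Among the 2181 genes with a mean of 1 to under 5 CPM, 65.6% were lower and 14.6% higher by the 2-fold rule without its filter. Oocyte markers were also higher in sum in dsNat10 (44.9 against 6.52 TPM), and their part in the level of Psma8 was not tested.

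In the base of the regulatory particle, the ATPases and the scaffold subunits differed. Psmc5 (chr11:106256185-106263112), an ATPase, had 790 TPM in dsNat10 and 1087 TPM in dsGFP, from 16707 and 24142 reads, the lowest ratio of the base (1.43-fold lower, 1.40 to 1.46). Psmc6, Psmc3 and Psmc1, also ATPases, were between 1.24-fold and 1.32-fold lower, and Psmc2 was 1.15-fold lower (1.13 to 1.17). The sixth ATPase, Psmc4 (chr7:28041702-28050092), went the other way, with 1195 and 1031 TPM from 28926 and 26239 reads (1.11-fold higher, 1.10 to 1.13). It was therefore the most abundant ATPase in dsNat10, whereas Psmc1 (952 and 1137 TPM) was so in dsGFP. The scaffolds Psmd1 (239 and 235 TPM) and Psmd2 (540 and 487 TPM) and the ubiquitin receptor Psmd4 (976 and 948 TPM) had ratios from 97.7% to 106.4% of dsGFP. The base as a whole had a median of -0.20, with 4 of 9 genes lower by the 1.2-fold rule, all of them ATPases, and 0 higher, against 31% and 23.8% of genes at 100 CPM or more.

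The lid, a scaffold of related subunits around the deubiquitinase Psmd14, had the lowest median of the 4 parts of the 26S particle, -0.45, with 5 of 8 genes lower by the 1.2-fold rule, against 31% of genes at 100 CPM or more. Psmd6 (chr14:14112185-14120945), a lid scaffold subunit, had 229 TPM in dsNat10 and 406 TPM in dsGFP, from 5113 and 9507 reads, and its 1.84-fold lower level (1.78 to 1.90) was the lowest ratio of the 26S particle. Psmd13 (chr7:140882394-140898642) had 236 and 365 TPM and was 1.61-fold lower (1.56 to 1.66). Psmd3 and Psmd8 followed at 1.49-fold (1.45 to 1.54) and 1.46-fold (1.43 to 1.498) lower. Psmd7, the inactive partner of Psmd14 and the lid member with the highest mean TPM, had 772 and 941 TPM and was 1.27-fold lower (1.25 to 1.29). Psmd14 itself had 452 and 449 TPM, from 11866 and 12395 reads, at 96.7% of dsGFP. The ratio of this heterodimer was therefore uneven: the TPM of Psmd14 was 58.6% of that of Psmd7 in dsNat10 and 47.7% in dsGFP. Psmd11, with the highest ratio of the lid subunits within the symbol rule, had 868 and 818 TPM (1.03-fold higher, 1.01 to 1.04). Psmd12 was at 86.1%.

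**Figure D3:**
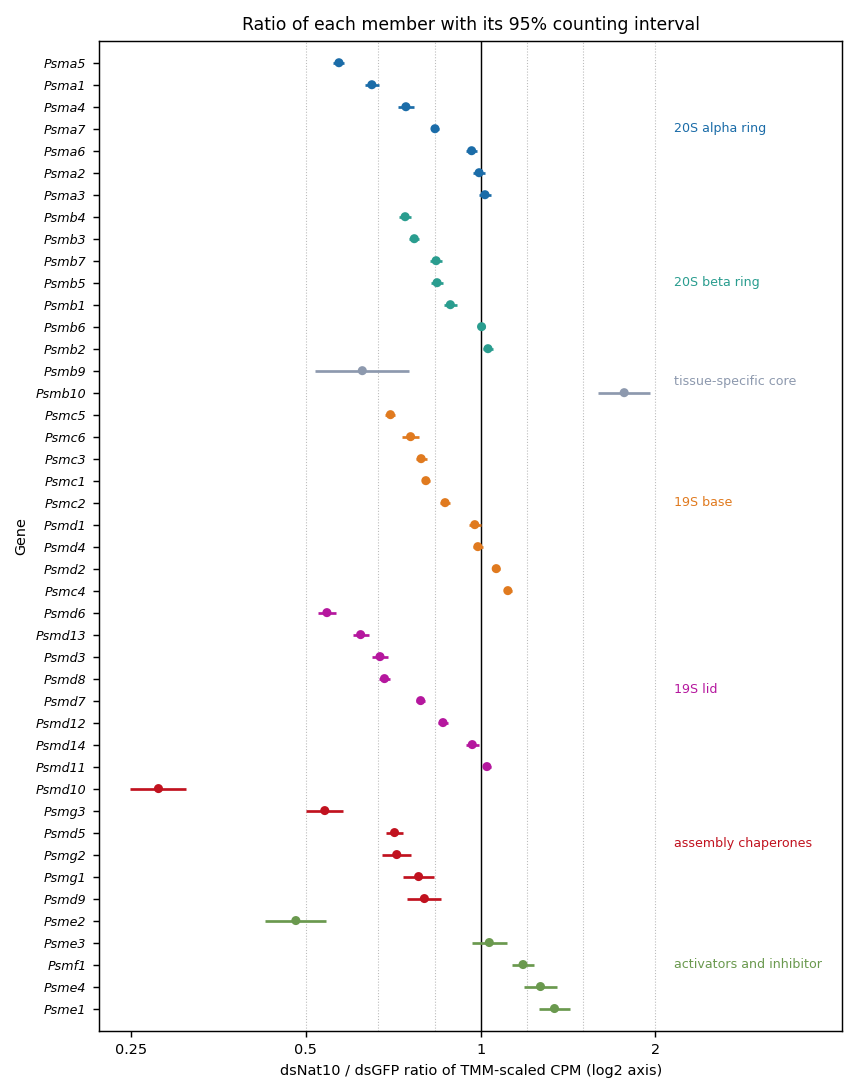
Ratio of TMM-scaled CPM, dsNat10 over dsGFP (log2 x axis), for the 44 members that passed the filter, as points with exact 95% counting intervals as bars, coloured by subcomplex; dotted lines mark folds of 1.2, 1.5 and 2. All 6 assembly chaperones shown lie left of equality, 4 of the 5 activators and inhibitor lie right of it, and Psmd10 is the lowest point, at 27.9% of dsGFP.

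Genes within the symbol rule for chaperones that build the proteasome, which are not part of the finished enzyme, had the lowest median of the subcomplexes. All 7 had fewer reads in dsNat10, the 6 that passed the filter were all lower by the 1.2-fold rule (36% of all genes), and their median was -0.48. Psmd10 (gankyrin, chrX:140948425-140956711), a chaperone of the ATPase ring, had 17.0 TPM in dsNat10 and 57.1 TPM in dsGFP, from 405 and 1469 reads. It was 3.59-fold lower (3.21 to 4.02), the lowest ratio among the 44 passing members; at 5 to under 100 CPM, 19.3% of genes were lower by the 2-fold rule. The other chaperones of that ring were lower by less, Psmd5 with 147 and 198 TPM (1.41-fold, 1.36 to 1.46) and Psmd9 with 33.3 and 40.0 TPM (1.25-fold, 1.17 to 1.34). Among these 7 chaperones, Psmd5 was the most abundant and Psmd9 had the highest ratio.

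The Psmg chaperones build the alpha ring and work as the pairs Psmg1 with Psmg2 and Psmg3 with Psmg4. Psmg1 had 116 TPM in dsNat10 and 143 TPM in dsGFP (1.28-fold lower, 1.205 to 1.36), and Psmg2 had 113 and 152 TPM (1.40-fold lower, 1.32 to 1.48). Psmg2 stood at 97.6% of the TPM of Psmg1 in dsNat10 and 106% in dsGFP, so this pair kept near-equal levels. Psmg3 had 86.5 and 153 TPM, from 1090 and 2044 reads, and was 1.86-fold lower (1.72 to 1.9995). Its partner Psmg4 (chr13:34162964-34178172) was covered by 2 reads against 181, which is 89.6-fold lower with a wide interval (24.4 to 745). Psmg4 therefore went from 16.1% of the TPM of Psmg3 in dsGFP to 0.405% in dsNat10. At 3.17 CPM on average Psmg4 missed the filter, and of the 2181 genes at 1 to under 5 CPM, 56.7% had 3 reads or fewer in dsNat10 and 7.61% in dsGFP. The chaperones within the symbol rule were less abundant than the enzyme. Of the 6 that passed, 5 were under 100 CPM, where 37.6% of genes were lower by the 1.2-fold rule.

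The activators that open the core gate in place of the regulatory particle, and the inhibitor Psmf1 (PI31), differed in both directions. Of 5 passing genes 4 had a ratio above 0, with a median of 0.24, while 49.5% of all genes had a ratio below 0. By the 1.2-fold rule 2 were higher and 1 lower, a share near that of all genes (37.4% and 36%). Psme1 had 149 TPM in dsNat10 and 107 TPM in dsGFP, from 2291 and 1727 reads, and was 1.34-fold higher (1.26 to 1.43). Psme2, which joins Psme1 in 1 ring, had 29.5 and 60.0 TPM, from 407 and 856 reads, and was 2.08-fold lower (1.85 to 2.35). Psme2 thus stood at 19.7% of the TPM of Psme1 in dsNat10 and 55.9% in dsGFP. The counts of Psme2 are fractional and a copy of it, Psme2b, is annotated, with 1 read in each library, so its value is uncertain. Psme4, which caps the core in germ cells and after DNA damage, was 1.27-fold higher (1.19 to 1.35), also with fractional counts. Psme3, a nuclear activator, had 34.4 and 31.9 TPM with an interval that included equality (0.966 to 1.11), and Psmf1 had 81.8 and 66.8 TPM (1.18-fold higher, 1.13 to 1.23).

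Summed over members, proteasome transcripts made up 2.52% of all TPM in dsNat10 and 2.84% in dsGFP. The sum for the alpha ring was 5849 TPM against 6803 TPM, or 86.0% of dsGFP, and for the beta ring 8424 against 9221 TPM, or 91.4%. The base stood at 92.6% and the lid at 83.1%, so that the 20S core (89.1%) and the 19S particle (88.8%) had nearly the same ratio of sums. The 19S sums leave out the intrinsic subunits Adrm1 (937 against 976 TPM) and Sem1 (609 against 512 TPM), which lie outside the symbol rule. Assembly chaperones summed to 514 TPM against 768 TPM (66.9%), and activators with the inhibitor to 314 against 280 TPM (112%). The chaperone sum leaves out Pomp (955 against 910 TPM), also outside the symbol rule, which exceeded that sum in each library. The core and its regulatory particle therefore differed by like amounts between libraries, while the chaperone and activator sums differed in opposite directions. The higher activator sum depended on Psme1 (149 against 107 TPM), whose difference exceeded that of the whole sum. Psme2 (29.5 against 60.0 TPM) went the other way.

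**Figure D4:**
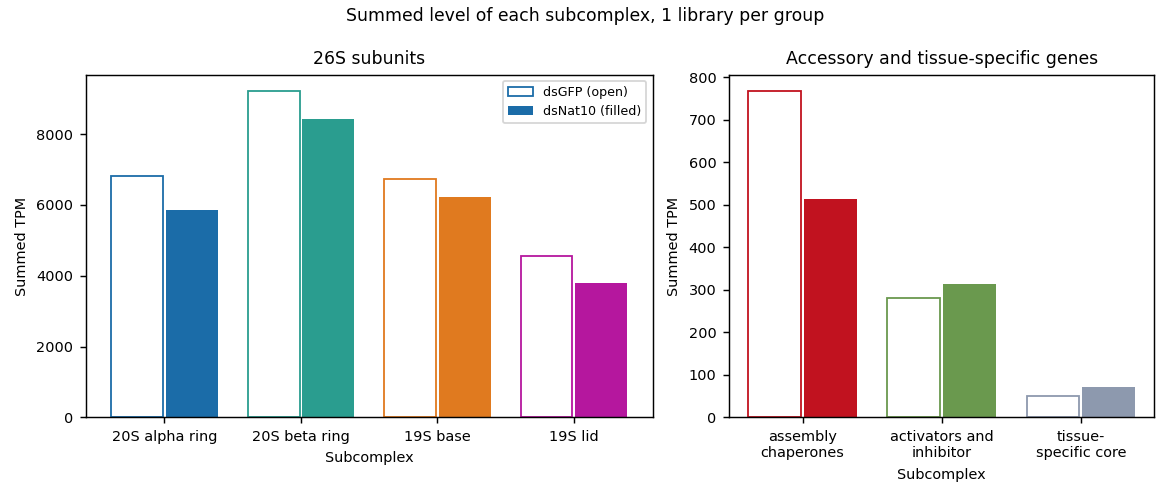
Summed TPM of the members of each subcomplex in the dsGFP (open bars) and dsNat10 (filled bars) library; the panels have different y axes, both starting at 0, and with 1 library per group there are no error bars. The chaperone sum, which leaves out Pomp, is 66.9% of dsGFP. The sums of the 26S parts are between 83.1% and 92.6%, and the sum of activators and inhibitor is 112%. That last excess depends on Psme1.

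Subunits that enter the particle in equal numbers had unequal transcript levels in both libraries. Across the 14 subunits of the 20S core, TPM ranged 5.46-fold in dsNat10 and 4.59-fold in dsGFP, with a coefficient of variation of 53.2% and 49.3%. Psmb3, Psma7, Psmb6 and Psmb2 held the first 4 places among the 31 subunits of the 26S particle in both libraries, in a different order. The rank correlation of TPM between libraries was 0.90 over the 31 genes and 0.83 over the 14 core genes. These are across genes that share the same libraries, and are given as a description only.

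Genes that work with the proteasome but lie outside the symbol rule were more often higher than lower in dsNat10. Of 20 partner genes that passed the filter, 6 had a log2 ratio below 0 (background 49.5%), and the median of the 20 was 0.25. By the 1.2-fold rule 3 were lower (background 36%) and 10 higher (background 37.4%). The intrinsic subunits Adrm1, a ubiquitin receptor and the partner with the highest mean TPM, and Sem1, a small lid subunit, had 937 and 976 TPM (1.08-fold lower, 1.06 to 1.10) and 609 and 512 TPM (1.15-fold higher, 1.10 to 1.21). Pomp, the chaperone of the beta ring, had 955 TPM in dsNat10 and 910 TPM in dsGFP, from 10259 and 10257 reads, unlike the 7 chaperones above.

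Nfe2l1 is the factor known to raise proteasome genes when the enzyme is impaired, and Ngly1 and Ddi2 process it into its active form. All were higher in dsNat10: Nfe2l1 had 29.8 against 19.6 TPM (1.44-fold, 1.35 to 1.54), Ngly1 11.8 against 4.45 TPM (2.60-fold, 2.22 to 3.06) and Ddi2, with fractional counts, 9.13 against 5.41 TPM (1.62-fold, 1.42 to 1.85). Its relative Nfe2l2, the factor of the oxidative stress response, had 355 reads in dsNat10 and 2230 in dsGFP and was 6.22-fold lower (5.56 to 6.97). The ligase Ube3c (2.17-fold, 2.02 to 2.33), the shuttle factor Ubqln4 (1.65-fold, 1.505 to 1.81) and the nuclear import factor Akirin2 (1.64-fold, 1.31 to 2.06, fractional counts) were also higher by the 1.5-fold rule. Ngly1 and Ddi2 passed that rule too, whereas Nfe2l1 passed only the 1.2-fold rule. At 5 to under 100 CPM, 30.4% of genes were higher by the 1.5-fold rule and 41.7% by the 1.2-fold rule. Among the genes for ubiquitin and its activating enzymes, Ubb was the most abundant at 7591 against 6602 TPM, and Uba6 had 70 against 414 reads (5.85-fold lower, 4.53 to 7.65).

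The complexes most like the proteasome in build had medians nearer to 0. The COP9 signalosome, whose subunits are related to those of the lid, had 6 of 10 genes with a ratio below 0 (49.5% of all genes). Its median was -0.05, with 3 lower and 2 higher by the 1.2-fold rule (36% and 37.4% of all genes). The CCT chaperonin, another ring complex of abundant subunits, had 4 of 8 below 0, a median of 0.01, and 2 lower and 3 higher. The shares by the 1.2-fold rule are near or below those of all genes. Every CCT gene was above 100 CPM, where 31% of genes were lower and 23.8% higher. At that abundance the CCT share lower was below the background and its share higher above it. The difference between these complexes and the proteasome could not be tested with 1 library per group.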

How the data were processed

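PolyA RNA of 1 dsNat10 and 1 dsGFP library was sequenced after SMART-seq2, a full-length cDNA protocol with PCR. The submitters' processing notes name Trim Galore for trimming, HISAT for mapping to GRCm38 and HTSeq for counting. Tool versions and the annotation: not given in the sources used here. In the table, the authors deposited estimated counts, which are not normalized and are fractional for 23.2% of genes (5 members), as well as TPM and FPKM values, which they scaled by length and library. PCR reads are not independent molecules, so intervals cover counting error only.

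Estimated counts were rounded and expressed as CPM with TMM scaling (edgeR 4.0.16, R 4.3.3), which moved log2 ratios by -0.03 against plain totals. Log2 ratios used a pseudocount of 1 CPM, which understates the difference of low genes; folds with an interval have none. Intervals are exact (Clopper-Pearson, scipy 1.17.1). The filter was a mean of 5 CPM, which 44 of 48 members passed. The interval and fold rules were tested on simulated Poisson counts. Those hold counting error only, so the test says nothing about spread between embryo pools or PCR. The interval excluded equality for 89.3% of all genes that passed the filter and for 39 of the 44 members. No p-value was computed.

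Members, lists and rules were chosen with earlier results of these data known. Named are the catalytic subunits and their immune counterparts, the lowest, highest and most abundant member of each subcomplex, members called by the 1.5-fold rule, and partners likewise, with others given for context after their values were seen. Psmb8, also an immune counterpart, was not among the 48 members found under the symbol rule and was not analysed here. Libraries of this protocol carry no strand information, so a gene and an antisense partner share reads where they overlap. Sequences and coordinates are from RefSeq, GRCm38.p6. DESeq2 1.42.0 size factors served as an alternative. No per-sample column was left unused.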

Additional observations from a re-analysis of the deposited data

How the results depend on the processing

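Alternatives were plain totals, DESeq2 size factors, a scaling that set the median of genes at 100 CPM or more to 0, a pseudocount of 0.1 CPM, no filter, a filter at 20 CPM, the authors' TPM and FPKM, and leaving out genes with fractional counts. The number of members lower by the 2-fold rule, 2 as reported, was 1 with plain totals, 1 with the abundant genes' median at 0, 1 without fractional genes and 4 with no filter, where the lower members added are Psmg4 and Psmb11. Every other count stayed within 1.5 times its value, and no median changed sign. The alpha ring median of -0.26 became -0.16 without fractional genes, and that of the activators and inhibitor went from 0.24 to 0.14 with no filter. With 5 to 9 members, the interval used to judge a median spans nearly all of them, so it is a weak check. The proteasome median lay between -0.30 and -0.23 under these settings. Dropping the filter moved the median of all genes by -0.15. The sign of Psma2, Psma6, Psmb6, Psmd1, Psmd4 and Psmd14, all within 4% of equality, changed with the scaling or unit. For the start regions, counting only bases before the start (chosen after seeing the data) gave 12.5%, 35% and 55% of members with TGACNNNGC, CCAAT and GGGCGG. No paired analysis was possible because each group has 1 library. Leaving out a library was not possible for the same reason.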
